A study of Coturnix japonica with 15 samples.

Results

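The genes described here encode chaperones of the endoplasmic reticulum (ER) and proteins of the response to misfolded protein in it. They are HERPUD1, HSPA5, XBP1, DNAJB9, HSP90B1, PDIA4 and CALR, chosen by symbol in the NCBI gene table for Coturnix japonica. Each matched 1 gene ID, so the group holds 7 of the 20308 gene IDs measured, 12972 of which carry a symbol. RNA came from the left lobe of the liver of Japanese quail embryos at embryonic day 9. Eggs were injected with 10 µl into the air cell and then incubated at 37 °C and 60% humidity. The 3 groups were DMSO solvent, ethinylestradiol (EE2) at 3.33 µg per g of egg and EE2 at 33.3 µg per g of egg, with 5 libraries each. EE2 is a synthetic oestrogen, and DMSO was the solvent named for the control eggs. The labels name no transgene, strain or sex, and whether libraries and embryos correspond one to one is not stated. P-values therefore measure the spread between these libraries, which may be partly technical.

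Secreted and membrane proteins enter the ER unfolded, and lumenal chaperones and disulfide isomerases help them to fold there. When unfolded protein builds up, sensors in the ER membrane start the unfolded protein response, which raises the transcripts of these helpers and of the machinery that removes misfolded protein. Liver cells export large amounts of plasma protein, and in egg-laying vertebrates oestrogen makes the liver secrete yolk precursors as well. HERPUD1 is an ER membrane protein of the degradation machinery, and XBP1 is a transcription factor of the response. HSPA5 (BiP) is the Hsp70 chaperone of the ER lumen, DNAJB9 (ERdj4) is a J-domain partner of it and HSP90B1 (GRP94) is the Hsp90 chaperone of the lumen. CALR (calreticulin) is a lectin chaperone that binds newly made glycoproteins, and PDIA4 (ERp72) is a disulfide isomerase. These roles are best known from mammals.

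Library totals ran from 21715263 to 54591387 estimated counts. All 7 genes passed the filter on low counts, and their estimated counts per library ran from 262 for HERPUD1 to 84850 for CALR. Levels are CPM, counts scaled to a TMM-adjusted library total of 1e+06, which take no account of transcript length, so levels of different genes are not compared. Albumin took 4.85% of the counts in EE2 3.33 µg/g replicate 4 and 5.87% in EE2 33.3 µg/g replicate 1, against 9.71% to 13.3% in the other 13 libraries. Hepatocyte markers were detected in every library: 9 of the 10 listed were in the file and none was at 0 in any library. Their summed level was 154445 to 190159 CPM in solvent, 62452 to 175267 CPM at 3.33 µg/g and 82637 to 176945 CPM at 33.3 µg/g. Albumin (ALB) made up most of that sum, at 40549 to 137398 CPM, while HNF4A ran from 26.0 to 66.9 CPM. In a bulk sample, fewer cells of a type and less RNA per cell cannot be told apart. Of other cell types rich in ER, only 6 of the 19 pancreatic acinar markers listed were in the file, summing to at most 1.67 CPM. CPB1, CEL, PTF1A and CELA1 were at 0 in 12 or 13 libraries and CTRL in 8. RBPJL was at 0 in 2 and reached 1.57 CPM. The listed acinar genes not in the file could not be checked. The 6 plasma and B cell markers in the file summed to 4.17 to 10.6 CPM, most of it BLNK, while JCHAIN, the antibody joining chain, reached at most 0.57 CPM.

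HERPUD1 had the largest change of the 7 genes at 33.3 µg/g and was the only 1 to pass an adjusted p of 0.05 there. It measured 19.3, 16.6, 12.5, 16.0 and 16.0 CPM in the solvent libraries. At 3.33 µg/g it measured 22.2, 25.5, 21.8, 24.5 and 18.4 CPM, and at 33.3 µg/g 29.3, 29.2, 26.5, 17.2 and 27.2 CPM. All but 1 library at each dose lay above every solvent library, and the exceptions, replicate 5 at 3.33 µg/g and replicate 4 at 33.3 µg/g, lay inside the solvent range. The means were 25.9 ± 5.02 CPM at 33.3 µg/g and 16.1 ± 2.45 CPM in solvent (SD, n = 5 each), which is 0.69 on the log2 scale (SE 0.15, adjusted p = 0.0335), or 1.61-fold with a 95% interval of 1.29 to 1.999. In that comparison 1.08% of the 14508 genes tested passed, 0.937% of them as higher, and a count of 1 in 7 genes is too small to set against that share. In the 3.33 µg/g group the mean was 22.5 ± 2.74 CPM (SD, n = 5), and the log2 fold change against solvent of 0.48 (SE 0.15) had an adjusted p of 0.125. The mean of both doses against the same solvent libraries gave 0.58 on the log2 scale (SE 0.13, adjusted p = 0.0298), with 8 of 10 treated libraries above all solvent libraries.

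The direction of the HERPUD1 change held in every alternative run, but the call at 33.3 µg/g did not. That call was kept in 6 of 15 runs with 1 library left out. It was kept in 5 of 12 other settings, DESeq2 among them (adjusted p = 0.00138), and lost in the rest. Left out singly, solvent replicate 2, 3, 4 or 5, EE2 3.33 µg/g replicate 3, or EE2 33.3 µg/g replicate 1, 2, 3 or 5 put the adjusted p between 0.0519 and 0.103, with log2 fold changes of 0.61 to 0.69. Without EE2 33.3 µg/g replicate 4, the lowest HERPUD1 library of its group, the log2 fold change was 0.80 and the adjusted p 0.00281. Leaving out the lowest treated value raises the fold change by construction. Without the pair of low-albumin libraries it was 0.64 (adjusted p = 0.0937), and with the albumin share as a covariate 0.66 (adjusted p = 0.0577). For the mean of both doses the adjusted p lay between 0.0513 and 0.0834 without the same libraries other than EE2 33.3 µg/g replicate 3. The file holds 3 transcript entries for HERPUD1, all named by the same gene ID. The entry with the fewest counts in solvent averaged 2.81 ± 1.38 CPM in solvent, 6.17 ± 1.57 CPM at 3.33 µg/g and 6.10 ± 2.41 CPM at 33.3 µg/g (SD, n = 5 each). The entry with the most counts averaged 9.22 ± 2.31 CPM in solvent, 10.03 ± 1.58 CPM at 3.33 µg/g and 13.7 ± 3.25 CPM at 33.3 µg/g. For the remaining entry the means were 4.05 ± 1.49 CPM in solvent, 6.30 ± 1.55 CPM at 3.33 µg/g and 6.06 ± 0.93 CPM at 33.3 µg/g. The split of reads between entries is kallisto's estimate and was not tested.

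**Figure D1:**
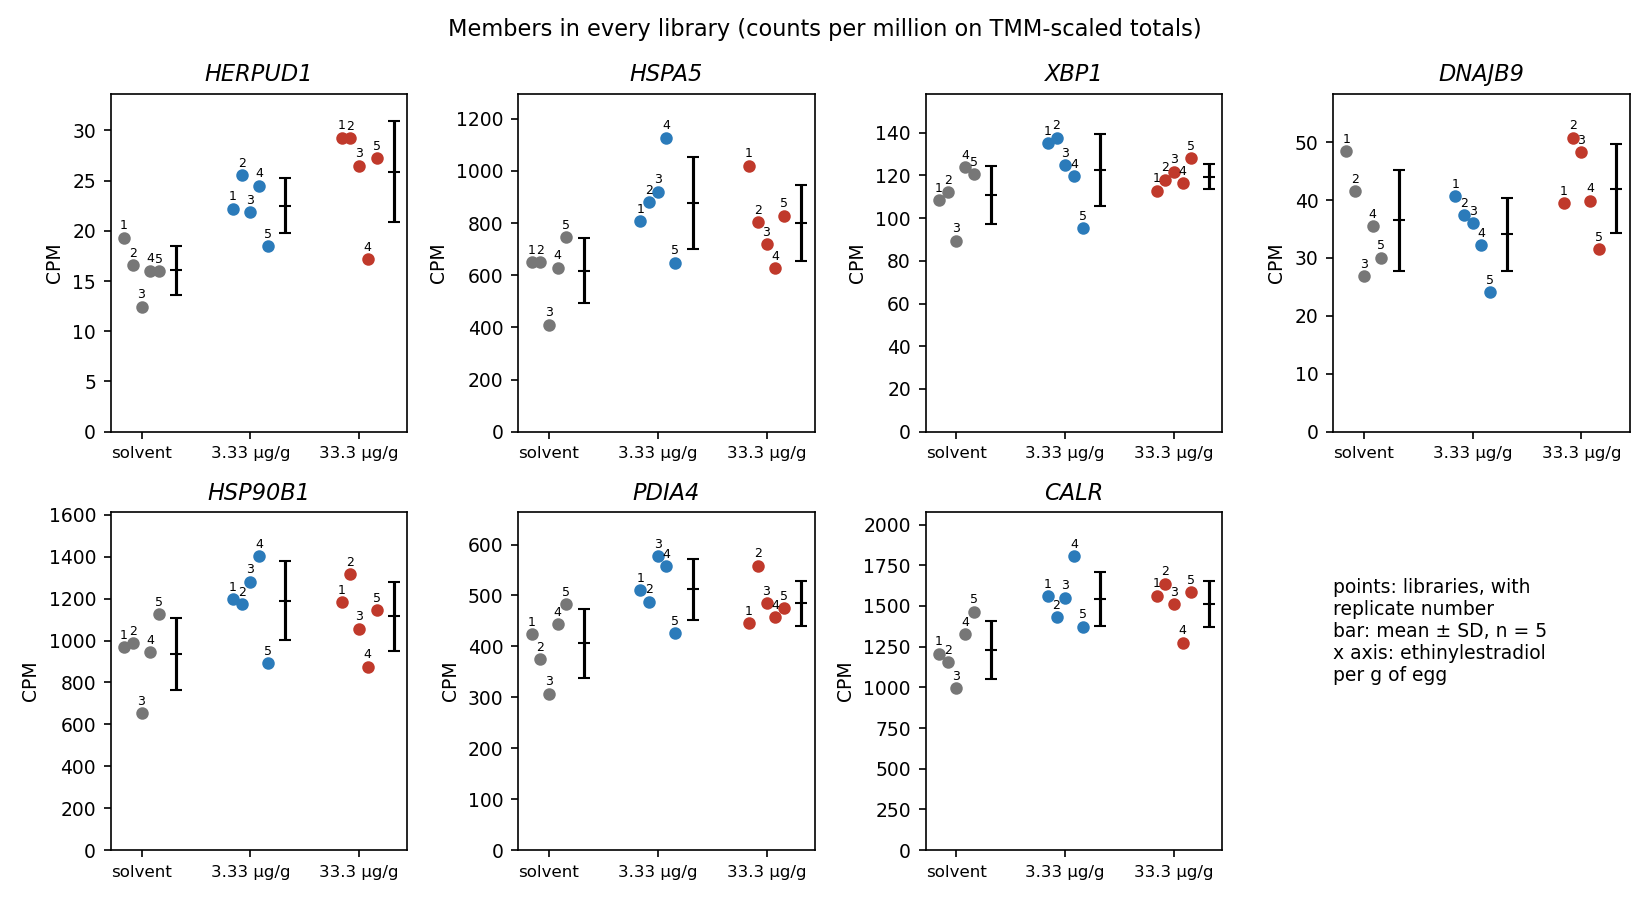
Levels of the 7 genes in CPM in the 15 libraries, by group from solvent to 33.3 µg/g EE2; points are libraries with their replicate number and bars are mean ± SD of 5. HERPUD1 averages 25.9 CPM at 33.3 µg/g and 16.1 CPM in solvent, while no gene has treated and solvent libraries that do not overlap.

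HSPA5 and HSP90B1, the Hsp70 and Hsp90 chaperones of the lumen, had higher means at both doses than in solvent, and neither passed the threshold. HSPA5 measured 651, 651, 410, 629 and 747 CPM in solvent. It measured 807, 882, 921, 1128 and 648 CPM at 3.33 µg/g and 1021, 804, 718, 628 and 829 CPM at 33.3 µg/g. Of the treated libraries, 3 of 5 at 33.3 µg/g and 4 of 5 at 3.33 µg/g lay above every solvent library, and the rest lay inside the solvent range. The highest treated libraries were the low-albumin one of each dose. At 33.3 µg/g HSPA5 averaged 799.9 ± 147 CPM, against 618 ± 124 CPM in solvent (SD, n = 5 each; log2 fold change 0.37, SE 0.17, adjusted p = 0.453). Its mean at 3.33 µg/g was 877 ± 175 CPM (SD, n = 5), 0.51 above solvent on the log2 scale (SE 0.17, adjusted p = 0.170). Without the low-albumin libraries these log2 fold changes were 0.27 at 33.3 µg/g and 0.40 at 3.33 µg/g. Without solvent replicate 3 as well, the solvent library with the lowest HSPA5, they were 0.16 and 0.29.

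HSP90B1 measured 969, 986, 653, 946 and 1125 CPM in solvent. At 3.33 µg/g it measured 1199, 1174, 1281, 1403 and 893 CPM, and at 33.3 µg/g 1183, 1317, 1056, 876 and 1146 CPM. The libraries at the ends were those of HSPA5 at 3.33 µg/g and in the solvent group: replicate 4 was highest and replicate 5 lowest at 3.33 µg/g, and solvent replicate 3 was lowest of all 15. Against the solvent mean of 936 ± 173 CPM, the log2 fold change was 0.25 (SE 0.15, adjusted p = 0.615) at 33.3 µg/g, where the mean was 1116 ± 164 CPM. It was 0.35 (SE 0.15, adjusted p = 0.304) at 3.33 µg/g, where the mean was 1189.9 ± 189 CPM (SD, n = 5 in each group). Without solvent replicate 3 the value at 33.3 µg/g was 0.15, and without the low-albumin libraries as well the values were 0.13 at 33.3 µg/g and 0.18 at 3.33 µg/g.

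CALR and PDIA4 kept closer to their means within groups than HSPA5 did, and they too missed the threshold. CALR measured 1207, 1154, 994, 1327 and 1466 CPM in solvent. Its libraries at 3.33 µg/g held 1561, 1431, 1550.3, 1806 and 1374 CPM, and those at 33.3 µg/g held 1564, 1638, 1509, 1275 and 1583 CPM. Of the treated libraries, 4 of 5 at 33.3 µg/g and 3 of 5 at 3.33 µg/g lay above every solvent library. The mean was 1514 ± 141 CPM at 33.3 µg/g, against 1229.9 ± 178 CPM in solvent (SD, n = 5 each; log2 fold change 0.30, SE 0.11, adjusted p = 0.332). The mean at 3.33 µg/g was 1544 ± 166 CPM (SD, n = 5; log2 fold change against solvent 0.33, SE 0.11, adjusted p = 0.178). For the mean of both doses the log2 fold change was 0.31 (SE 0.10), with an adjusted p of 0.138 in edgeR and 0.0338 in DESeq2.

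PDIA4 measured 423, 375, 307, 443 and 484 CPM in solvent. It measured 509.8, 488, 577, 558 and 426 CPM at 3.33 µg/g and 445, 558, 485, 458 and 475 CPM at 33.3 µg/g. Replicate 5 at 3.33 µg/g and 3 of the 5 libraries at 33.3 µg/g lay inside the solvent range. The log2 fold change against the solvent mean of 406 ± 67.8 CPM was 0.25 (SE 0.12, adjusted p = 0.470) at 33.3 µg/g, with a mean of 484 ± 44.2 CPM. For the 3.33 µg/g group, with a mean of 512 ± 59.7 CPM, it was 0.33 (SE 0.12, adjusted p = 0.195; SD, n = 5 in each group). Leaving out solvent replicate 3 gave 0.17 at 33.3 µg/g.

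XBP1 and DNAJB9 showed the smallest differences, and most of their treated libraries lay among the solvent ones. XBP1 measured 108, 112, 89.5, 124 and 120.5 CPM in solvent. At 3.33 µg/g its levels were 135, 138, 125, 119.6 and 95.3 CPM, and at 33.3 µg/g they were 113, 118, 122, 116 and 128 CPM. Above every solvent library lay 3 of 5 libraries at 3.33 µg/g and 1 of 5 at 33.3 µg/g. The 33.3 µg/g libraries varied least, with a mean of 119 ± 5.82 CPM, against 110.9 ± 13.4 CPM in solvent (SD, n = 5 each). That is a log2 fold change of 0.11 (95% interval -0.12 to 0.33; adjusted p = 0.813). With a mean of 123 ± 16.9 CPM (SD, n = 5), the 3.33 µg/g group differed from solvent by 0.14 (-0.08 to 0.37; adjusted p = 0.573). Leaving out solvent replicate 3 gave 0.039 at 33.3 µg/g and 0.076 at 3.33 µg/g, and leaving out EE2 3.33 µg/g replicate 5 gave 0.22 at 3.33 µg/g. The activity of XBP1 depends on splicing of its RNA by the sensor IRE1. The file has 2 entries for it, named only by the gene ID, and the first holds 97.0% to 97.4% of its counts on average in each group. Which entry, if either, is the spliced form was not known here, so the measured level is total XBP1 RNA.

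DNAJB9 measured 48.5, 41.6, 26.9, 35.5 and 30.1 CPM in solvent. It measured 40.6, 37.4, 36.0, 32.2 and 24.1 CPM at 3.33 µg/g and 39.4, 50.8, 48.2, 39.9 and 31.5 CPM at 33.3 µg/g. Only replicate 2 at 33.3 µg/g lay above all solvent libraries, and replicate 5 at 3.33 µg/g lay below all of them. Means were 36.5 ± 8.71 CPM in solvent, 34.1 ± 6.33 CPM at 3.33 µg/g and 42.0 ± 7.71 CPM at 33.3 µg/g (SD, n = 5 each). The log2 fold change of 33.3 µg/g over solvent was 0.20 (95% interval -0.17 to 0.57; adjusted p = 0.777), and that of 3.33 µg/g was -0.10 (-0.47 to 0.27; adjusted p = 0.848). With 1 library left out the value at 33.3 µg/g ran from 0.11 (solvent replicate 3) to 0.32 (solvent replicate 1). Its sign at 3.33 µg/g turned without solvent replicate 1 or EE2 3.33 µg/g replicate 5, to 0.023 and 0.0017.

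**Figure D2:**
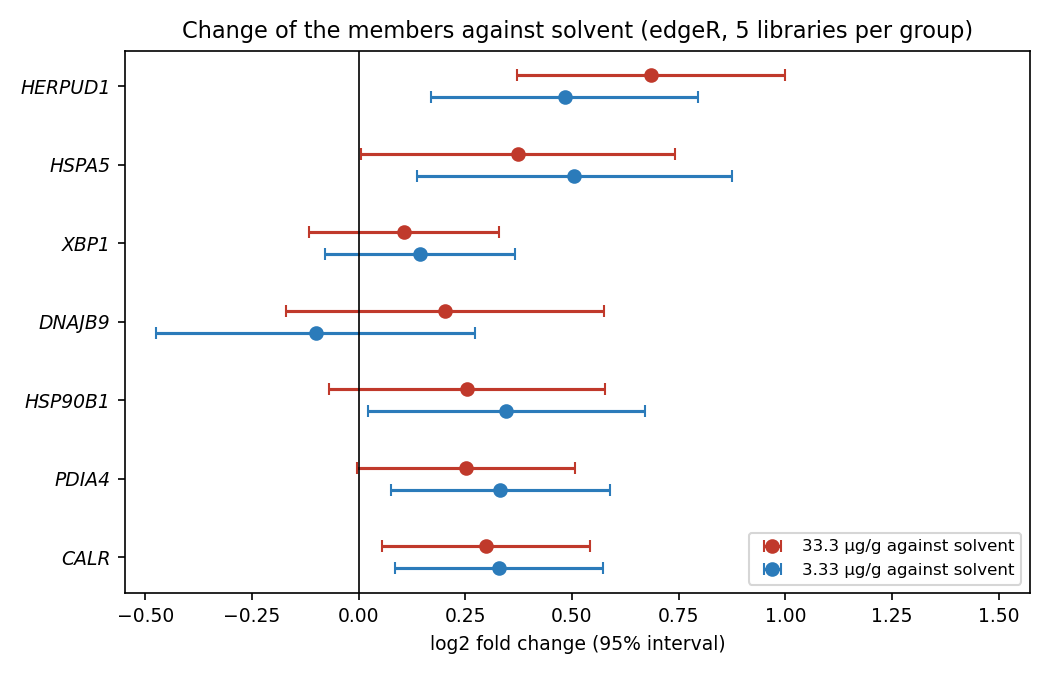
Log2 fold changes of the 7 genes against solvent at 33.3 µg/g and 3.33 µg/g EE2, with 95% intervals from edgeR (5 libraries per group). HERPUD1 stands at 0.69 and 0.48, and DNAJB9 at 3.33 µg/g is the only value below 0, at -0.10.

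Of the 7 genes together, the log2 fold change was above 0 for 7 at 33.3 µg/g and for 6 at 3.33 µg/g, with medians of 0.25 and 0.33. Over all genes tested, 50% and 50.8% were above 0 and both medians were 0.00 to 2 decimals. At an unadjusted p under 0.05, 3 of the 7 were higher at 33.3 µg/g, where 5.96% of all genes were, and 5 of 7 at 3.33 µg/g, where 8.2% were. After adjustment, edgeR called 0 of the 7 at 3.33 µg/g, where 1.38% of all genes passed. DESeq2 called 1 of the 7, HERPUD1 with an adjusted p of 0.0492, and 656 of all 14508 genes. limma-voom called 0 of the 7. For the mean of both doses all 7 were above 0, as were 50.4% of all genes, and 5 were higher at an unadjusted p under 0.05, as were 7.76%. After adjustment edgeR called HERPUD1 alone of the 7, while 1.96% of all genes passed, 1.39% as higher. DESeq2 called HERPUD1 and CALR there, and 707 of all 14508 genes. limma-voom called 0 of the 7. In each of the comparisons with solvent, 0 of the 7 had treated and solvent libraries that did not overlap; the share of all genes wholly above solvent was 1.84% at 33.3 µg/g, 2.3% at 3.33 µg/g and 0.986% for both doses together. All these comparisons share the solvent libraries. The 7 genes were chosen with earlier results of these data known, and several were correlated between libraries. Their counts beside the shares of all genes are therefore description and no test of the 7 as a group. Without the low-albumin libraries and solvent replicate 3, 0 of the 7 passed, and the medians were 0.16 at 33.3 µg/g and 0.20 at 3.33 µg/g. That setting was added after the data were seen. Solvent replicate 3 was lowest of its group in 7 of 7 genes, so leaving it out lowers these values by construction. They are no independent check.

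A difference between the doses was not detected in any of the 7 genes, and 2 of 7 were above 0, as were 49.3% of all genes. The log2 fold change of 33.3 over 3.33 µg/g was 0.20 (95% interval -0.11 to 0.51) for HERPUD1 and 0.30 (-0.07 to 0.67) for DNAJB9. It was -0.13 (-0.50 to 0.23) for HSPA5, -0.09 (-0.42 to 0.23) for HSP90B1 and -0.08 (-0.34 to 0.18) for PDIA4. XBP1 at -0.04 (-0.26 to 0.19) and CALR at -0.03 (-0.27 to 0.21) were nearest to 0. These intervals leave room for a change of 1.16-fold upward in CALR and of 1.60-fold upward in DNAJB9. Between the doses edgeR called 0 of the 7 and 0% of all 14508 genes. At an unadjusted p under 0.05 the counts were 0 of the 7 and 805 of all genes (5.55%, with 2.69% higher), DESeq2 called 0 of the 7 and 19 genes, and limma-voom 0 of each.

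Several of the 7 genes were high or low together from library to library, within groups as well. Solvent replicate 3 was lowest of its group in 7 of 7 genes and lowest of all 15 libraries in 6. EE2 3.33 µg/g replicate 5 was lowest of its group in 7 of 7 and below the mean of the 15 libraries in every gene. EE2 33.3 µg/g replicate 2 had the highest mean over the genes, 0.27 above the average on the log2 scale, against -0.60 in solvent replicate 3. EE2 3.33 µg/g replicate 4, with the lowest albumin share, was highest of the 15 in HSPA5, HSP90B1 and CALR. The genes' summed share of the library's counts was 0.606% there, against 0.241% in solvent replicate 3. That share is of totals without TMM adjustment, so it is not on the scale of the levels in CPM.

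**Figure D3:**
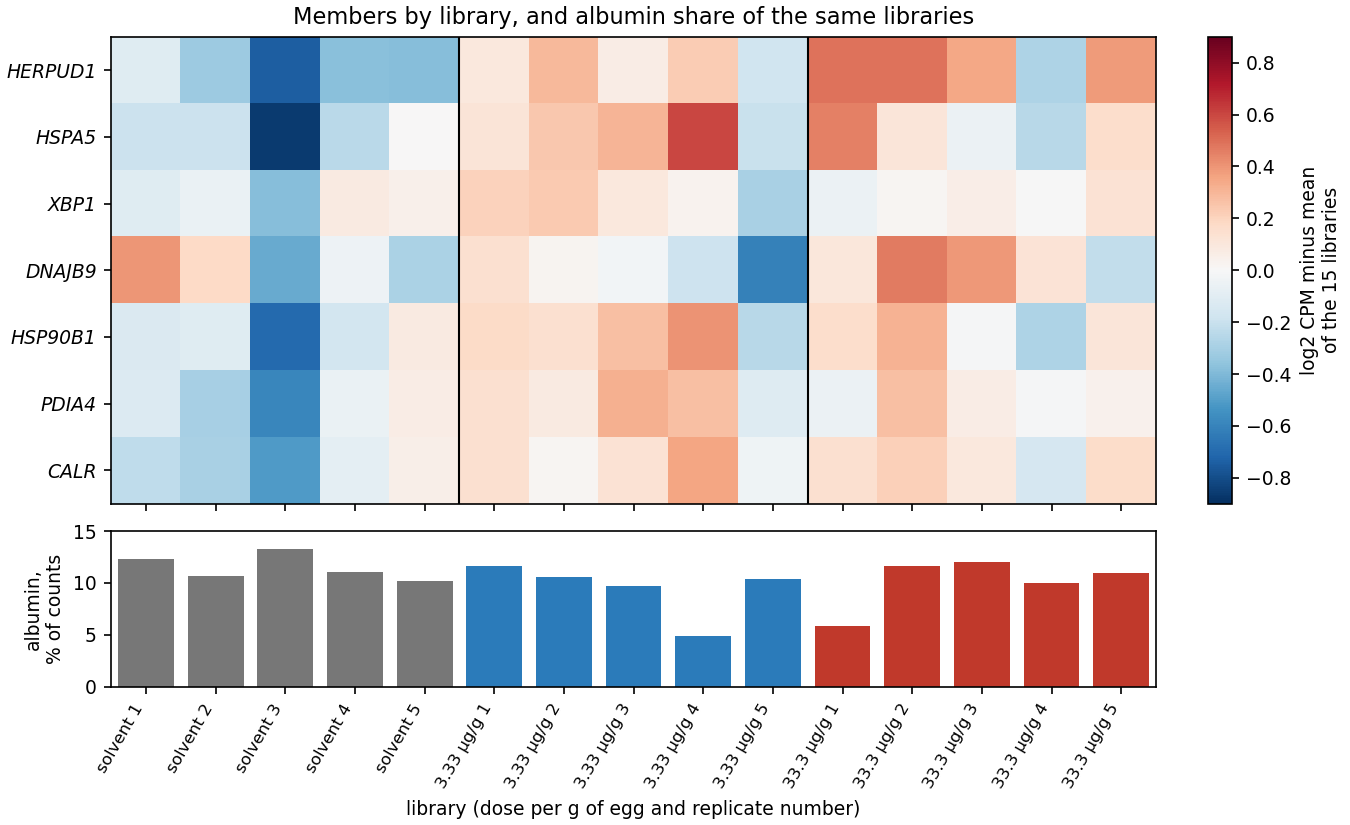
Log2 CPM of the 7 genes in each of the 15 libraries, minus the gene's mean over the libraries (colour), above the albumin share of counts in the same libraries (bars, percent). Solvent replicate 3 is low in every gene and has the highest albumin share, 13.3%, and EE2 3.33 µg/g replicate 4 is high in HSPA5 and has the lowest, 4.85%.

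With group means taken off, Pearson's r over the 15 libraries had a median of 0.65 over the 21 pairs of genes. Permuting libraries within groups 100000 times, with Benjamini-Hochberg adjustment over the 21 pairs, 10 pairs passed on r and 3 on Spearman's rho. HSPA5, HSP90B1, PDIA4 and CALR gave 6 of the 10 pairs, with r of 0.68 to 0.92. The pair of HSPA5 and HSP90B1 had r = 0.92 (permutation p = 0.00025, adjusted p = 0.00263) and rho = 0.85 (permutation p = 0.00051, adjusted p = 0.0107), and r was 0.83 without solvent replicate 3 and EE2 3.33 µg/g replicate 4, the libraries farthest from the median of HSPA5. HSP90B1 and CALR had r = 0.89 (permutation p = 7e-05, adjusted p = 0.00147) and rho = 0.77 (permutation p = 0.00241, adjusted p = 0.0253), with r = 0.76 without the 2 farthest libraries. Over the 6 pairs r was 0.38 to 0.83 without the 2 farthest libraries and 0.46 to 0.86 without solvent replicate 3. HERPUD1 passed on r with HSPA5 (0.76), HSP90B1 (0.79) and CALR (0.65), and on rho with none. DNAJB9 passed with 0 of the other 6, at r of 0.16 to 0.52. XBP1 passed with PDIA4 only (r = 0.67, permutation p = 0.0224, adjusted p = 0.0471; rho = 0.53, permutation p = 0.0591, adjusted p = 0.177), and that r was 0.03 without solvent replicate 3 and EE2 3.33 µg/g replicate 5, so it rests on those libraries. Genes of 1 library share its depth and its make-up of cells, whose part in these correlations was not tested.

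Hepatocyte markers had lower means in the treated groups. All 9 tested had log2 fold changes below 0 at each dose against solvent, with medians of -0.26 at 33.3 µg/g and -0.53 at 3.33 µg/g. FGB (fibrinogen beta) fell at 33.3 µg/g in edgeR, averaging 2661 CPM there and 5498 CPM in solvent (log2 fold change -1.05, adjusted p = 0.0454). DESeq2 called FGA (fibrinogen alpha) and FGB lower in that comparison, and limma-voom called 0 of the 9. At 3.33 µg/g 0 of the 9 passed in edgeR or limma-voom, 5 at an unadjusted p under 0.05 and 1, HNF4A, in DESeq2. With both doses averaged, FGA (-0.84 on the log2 scale, adjusted p = 0.0391) and FGB (-0.85, adjusted p = 0.0375) fell in edgeR, and limma-voom called both as well. Without the low-albumin libraries 0 of the 9 passed at either dose or for the mean of both in edgeR, and the medians were -0.13 at 33.3 µg/g and -0.36 at 3.33 µg/g. Both libraries were treated and were set apart by a low share of ALB, itself among the 9. The smaller falls without them are therefore no independent check of the markers. HSPA5 was highest in the low-albumin libraries, at 1128 CPM in EE2 3.33 µg/g replicate 4 and 1021 CPM in EE2 33.3 µg/g replicate 1. Over all 15 libraries, with group means taken off, HSPA5 and the albumin share had r = -0.67 (permutation p = 0.00761, adjusted over the 7 genes 0.0533) and rho = -0.75 (permutation p = 0.0032, adjusted 0.0224). None of the other 6 genes passed on either measure. Among the 13 libraries other than the low-albumin pair, HSPA5 had r = -0.45 (permutation p = 0.207, adjusted over the 7 genes 0.628) and rho = -0.46 (permutation p = 0.161, adjusted 0.565). The sign was kept and neither value passed, but these 13 span a narrower range of albumin share. Whether the relation over 15 depends on that pair cannot be read from these values. Without solvent replicate 3 and EE2 3.33 µg/g replicate 3 as well, r was 0.19. Over the same 13, HERPUD1 had r = 0.17 (permutation p = 0.591, adjusted 0.628) and rho = 0.37 (permutation p = 0.253, adjusted 0.565). With solvent replicate 3 and EE2 3.33 µg/g replicate 3 also left out, r was 0.69 in HERPUD1 and 0.68 in DNAJB9. It was 0.35 in HSP90B1, 0.27 in PDIA4 and in CALR, and 0.13 in XBP1. The r values with those libraries left out carry no test. With the albumin share as a covariate, the log2 fold change for the mean of both doses was 0.55 in HERPUD1, 0.30 in HSPA5 and 0.26 in CALR. Without that covariate these values were 0.58, 0.44 and 0.31.

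Most macrophage markers had higher means at 3.33 µg/g than in solvent. Of the 7 listed, 5 were tested, and 4 were above 0 there, with a median log2 fold change of 0.70 and 3 higher at an unadjusted p under 0.05. C1QB, a chain of complement C1q, rose at that dose in edgeR, DESeq2 and limma-voom, averaging 14.9 ± 4.02 CPM against 8.16 ± 1.65 CPM in solvent (SD, n = 5 each; log2 fold change 0.87, edgeR adjusted p = 0.0234). In edgeR that call was lost without the low-albumin libraries and solvent replicate 3, and with the albumin share as a covariate. At 33.3 µg/g the median was 0.03 and 0 of the 5 passed, with 0 at an unadjusted p under 0.05 and 0 in DESeq2 or limma-voom. The summed macrophage level was 43.3 to 70.3 CPM in solvent, 62.3 to 122 CPM at 3.33 µg/g and 45.1 to 73.1 CPM at 33.3 µg/g. Of the 9 endothelial markers, 0 passed at either dose in the 3 tools, 2 were higher at an unadjusted p under 0.05 at 3.33 µg/g and 0 at 33.3 µg/g, and the medians were -0.15 at 33.3 µg/g and 0.017 at 3.33 µg/g. Of 15 erythroid markers listed, only 4 were in the file, TAL1, SLC4A1, EPB42 and TFRC, so the listed globin genes could not be checked. These 4 gave 0 calls in the 3 tools and 0 at an unadjusted p under 0.05. Their medians were 0.08 at 33.3 µg/g and 0.12 at 3.33 µg/g. The part of these cell types in the levels of the 7 genes was not tested.

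**Figure D4:**
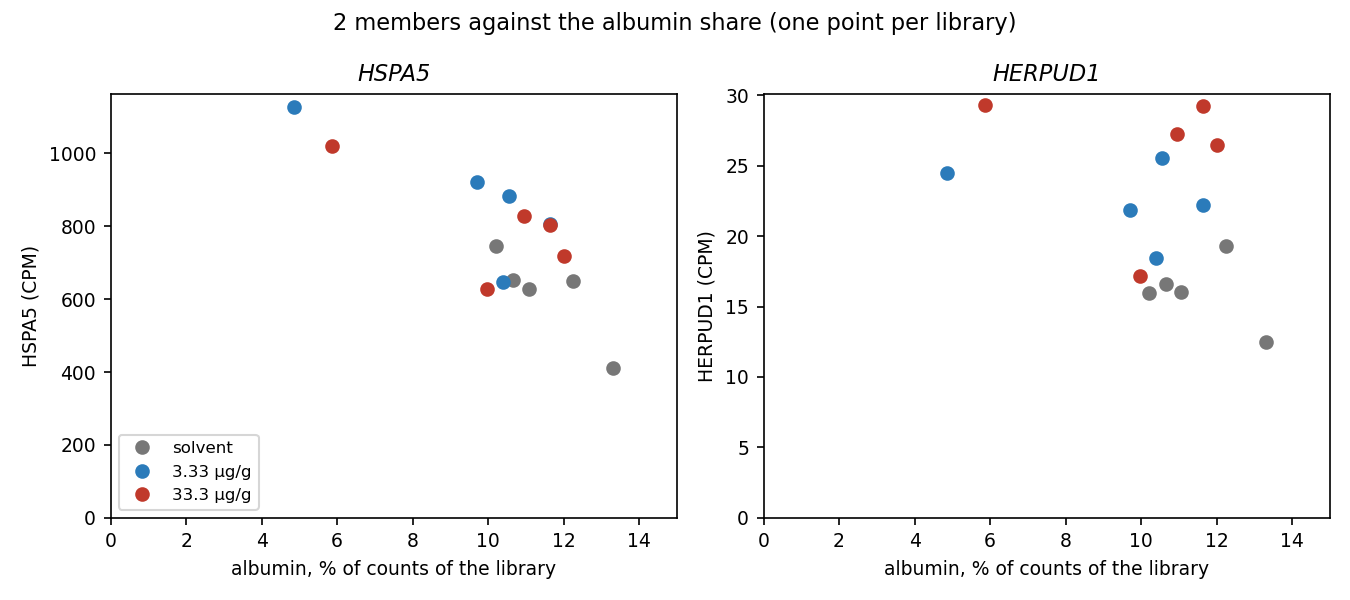
HSPA5 (left) and HERPUD1 (right) in CPM against the albumin share of counts (percent) in the 15 libraries, coloured by group. The low-albumin libraries, at 4.85% and 5.87%, hold the highest HSPA5 levels, 1128 and 1021 CPM.

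Other ER lumenal chaperones, co-chaperones and oxidoreductases had mostly small positive differences, and none passed in edgeR. All 29 listed genes, 5 of the 7 among them, were tested. The log2 fold change was above 0 in 22 at 33.3 µg/g and in 23 at 3.33 µg/g, with medians of 0.20 and 0.22; without the 5 shared genes the medians were 0.15 and 0.17. At an unadjusted p under 0.05, 6 were higher at 33.3 µg/g, and 14 were higher and 1 lower at 3.33 µg/g. Of the 24 genes left without the shared ones, 4 had such a p at 33.3 µg/g and 11 at 3.33 µg/g, in either direction. The shares of all genes were 10.8% and 14.6%, and 50% and 50.8% of all genes were above 0. Without the low-albumin libraries and solvent replicate 3 the medians of the 29 were 0.13 at 33.3 µg/g and 0.14 at 3.33 µg/g. DESeq2 called 0 at 33.3 µg/g, 2 (DNAJC10 and CRELD2) at 3.33 µg/g and 3 (CALR, P4HB and CRELD2) for the mean of both doses, and limma-voom 0 in each. Over all 14508 genes DESeq2 called 386, 656 and 707 in the same comparisons, to be set beside its counts in the lists below too. CRELD2, an ER protein induced by folding stress in mammals, averaged 119 ± 21.7 CPM in solvent, 193 ± 50.8 CPM at 3.33 µg/g and 163 ± 34.8 CPM at 33.3 µg/g (SD, n = 5 each). Its log2 fold change for the mean of both doses was 0.58 (SE 0.17, edgeR adjusted p = 0.0972). DNAJC10 (ERdj5), a disulfide reductase of the lumen, had 0.27 (SE 0.09, adjusted p = 0.145) in the same comparison.

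In the ER-associated degradation list, which holds HERPUD1, 20 of 21 genes were tested. In edgeR, HERPUD1 alone passed, at 33.3 µg/g and for the mean of both doses. The log2 fold change was above 0 in 20 of 20 genes at 33.3 µg/g and in 16 at 3.33 µg/g, with a median of 0.11 at each dose. Of all genes, 50% and 50.8% were above 0. Without HERPUD1 the counts were 19 of 19 and 15 of 19, and the medians 0.11 and 0.10. Of all 20 genes at 33.3 µg/g, 20 were above 0 in DESeq2 and 19 in limma-voom. In edgeR without the low-albumin libraries and solvent replicate 3, 17 were. The list was chosen with earlier results of these data known, so these counts are no test of it. ERLEC1, a lectin that recognises misfolded glycoproteins, stood at 0.25 on the log2 scale for the mean of both doses (SE 0.07, adjusted p = 0.0845), and UBE2J1, a ubiquitin-conjugating enzyme of the ER membrane, 0.25 (SE 0.08, adjusted p = 0.124). DESeq2 called both of these in that comparison, with HERPUD1; it called HERPUD1 and ERLEC1 at 33.3 µg/g and HERPUD1 at 3.33 µg/g. In limma-voom 0 genes of the list passed in any of the comparisons.

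Of the sensors and transcription factors of the unfolded protein response, 10 of 12 listed were tested, XBP1 among them. The medians were 0.03 at each dose, and edgeR called 0 in every comparison with solvent. At an unadjusted p under 0.05, 1 was higher and 1 lower at 33.3 µg/g, and 2 were higher and 1 lower at 3.33 µg/g. DESeq2 called 0 at 33.3 µg/g, 2 (ERN2 higher and CREB3L3 lower) at 3.33 µg/g and ERN2 for the mean of both doses, and limma-voom 0 in each. ERN2, a paralogue of the sensor IRE1, averaged 9.60 ± 1.31 CPM in solvent, 13.2 ± 2.36 CPM at 3.33 µg/g and 13.4 ± 1.75 CPM at 33.3 µg/g (SD, n = 5 each; log2 fold change for the mean of both doses 0.47, SE 0.12, edgeR adjusted p = 0.0672). CREB3L3, a membrane-bound transcription factor of liver, averaged 85.4 ± 20.3 CPM in solvent, 57.2 ± 13.1 CPM at 3.33 µg/g and 70.9 ± 9.37 CPM at 33.3 µg/g. For the mean of both doses that was -0.42 on the log2 scale (SE 0.15, adjusted p = 0.198). CREB3L2, a related factor, had 0.31 (SE 0.13, adjusted p = 0.275). The sensor genes ERN1 (IRE1), EIF2AK3 (PERK) and ATF6, named after their values were seen, had log2 fold changes of -0.09, 0.21 and -0.16 for the mean of both doses (adjusted p = 0.699, 0.614 and 0.332).

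Of 16 genes listed for the PERK arm and the integrated stress response, 11 were tested and 1, CEBPB, rose at each dose. Of all genes tested, 0.937% were called higher at 33.3 µg/g and 1.07% at 3.33 µg/g. The list was chosen with earlier results of these data known, so this count is no test of the list. CEBPB, a transcription factor that in liver also drives acute-phase and metabolic genes, averaged 73.9 ± 5.86 CPM in solvent, 176 ± 9.84 CPM at 3.33 µg/g and 191 ± 33.9 CPM at 33.3 µg/g (SD, n = 5 each). Its log2 fold change was 1.37 (SE 0.11, adjusted p = 2.74e-05) at 33.3 µg/g and 1.25 (SE 0.11, adjusted p = 2.49e-05) at 3.33 µg/g. The list's median was 0.07 at 33.3 µg/g and 0.33 at 3.33 µg/g, and without the low-albumin libraries it was 0.08 and 0.12. ATF4, the central transcription factor of this arm, was named after its value was seen. Its log2 fold change in edgeR was -0.30 at 33.3 µg/g (unadjusted p = 0.0405, adjusted p = 0.435) and 0.01 at 3.33 µg/g (adjusted p = 0.978). For the mean of both doses ATF4 had -0.14 (adjusted p = 0.635). CHAC1, a glutathione-degrading target of ATF4, had 1.07 (SE 0.37, adjusted p = 0.177), and ATF3 1.73 (SE 0.74, adjusted p = 0.281). ATF3 ranged from 2.73 to 8.21 CPM in solvent, from 3.60 to 55.4 CPM at 3.33 µg/g and from 2.54 to 31.4 CPM at 33.3 µg/g.

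Heat shock proteins of the cytosol and mitochondria mostly had log2 fold changes just below 0, and none passed in edgeR. Of 22 listed, 19 were tested. The log2 fold change was above 0 in 7 at 33.3 µg/g and in 3 at 3.33 µg/g, with medians of -0.03 and -0.06. Of all genes, 50% and 50.8% were above 0. edgeR called 0 at each dose; at an unadjusted p under 0.05, 1 was lower at 33.3 µg/g and 1 higher at 3.33 µg/g. DESeq2 called 0 at 33.3 µg/g and 1, BAG3, at 3.33 µg/g, and limma-voom 0. BAG3, a co-chaperone of cytosolic Hsp70, had the smallest p of the list for the mean of both doses (log2 fold change 0.57, SE 0.20, adjusted p = 0.180). HSF2, a heat shock transcription factor, had -0.15 (adjusted p = 0.406) and DNAJB6, a J-domain co-chaperone, -0.13 (adjusted p = 0.526).

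**Figure D5:**
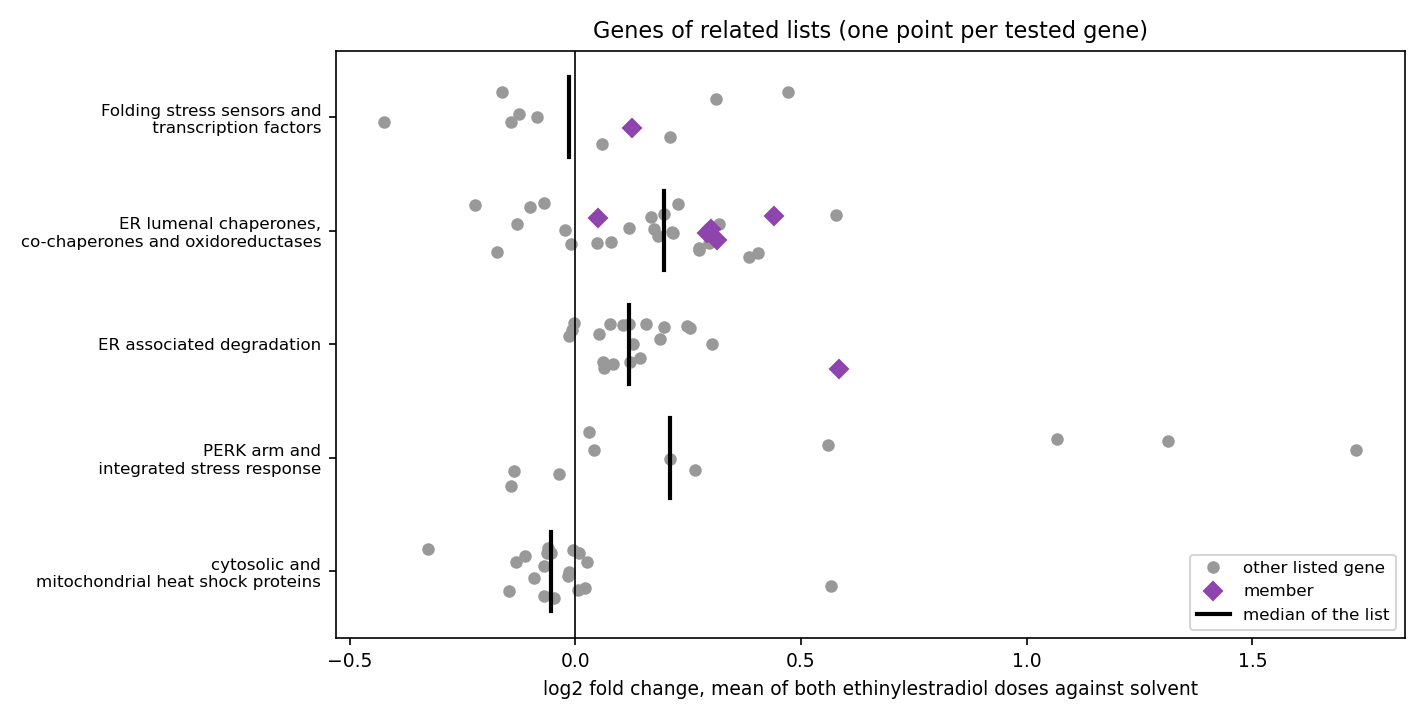
Log2 fold change for the mean of both EE2 doses against solvent of each tested gene in 5 lists (points), with diamonds for the 7 genes described and a bar at each list's median. The medians are 0.20 for ER lumenal chaperones and 0.12 for ER-associated degradation, against -0.05 for cytosolic and mitochondrial heat shock proteins.

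The genes whose pattern over the 15 libraries was most like the mean of the 7 were sought among 7742 other genes with a symbol and a mean of at least 10 CPM. The 5 highest were UFM1 (r = 0.92), HYOU1 (0.89), MANF (0.89), TRAM1 (0.89) and EBP (0.89), while the median r of all candidates was -0.01. UFM1 is a ubiquitin-like modifier, HYOU1 is a nucleotide exchange factor for HSPA5, MANF is an ER-resident secreted factor, TRAM1 belongs to the protein translocation site and EBP is a sterol isomerase of the ER membrane. With group means taken off, the 5 highest were HYOU1 (0.88), EBP (0.88), UFM1 (0.87), SLC35B1 (0.85) and MANF (0.84), SLC35B1 being a nucleotide carrier of the ER. HYOU1 averaged 166 ± 31.0 CPM in solvent, 201 ± 23.9 CPM at 3.33 µg/g and 188 ± 15.8 CPM at 33.3 µg/g (SD, n = 5 each). Its log2 fold change for the mean of both doses was 0.23 (SE 0.11, adjusted p = 0.348). These values of r were ranked out of many genes and carry no test.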

How the data were processed

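RNA was sequenced from 15 libraries of embryonic quail liver, 5 per group by the labels. The authors quantified reads with kallisto, per the submitters' processing notes; the sources used here give neither its version nor its index or build. The authors deposited estimated counts (expected counts) without normalization for 47418 transcript entries, each named by a gene ID; 0 per-sample columns were left out. Entries were summed per gene ID and rounded, and 18900 of 20308 IDs (93.1%) matched the NCBI gene table (Coturnix japonica 2.1). edgeR 4.0.16 in R 4.3.3 (filterByExpr, TMM, robust quasi-likelihood F-test, all 15 libraries in 1 model of group) tested 14508 genes; p-values were two-sided and Benjamini-Hochberg adjusted over them, with a threshold of 0.05. Standard errors are the log2 fold change over the root of F. Log2 CPM used a prior count of 2. Alternatives included DESeq2 1.42.0 and limma-voom (limma 3.58.1). The members and the lists were chosen with earlier results of these data known. In lists other than cell type markers, named genes were those called by edgeR in any comparison plus the 3 with the smallest p for both doses; ATF4, 3 sensor genes, genes that only DESeq2 called and the marker genes were named after their values were seen. Correlation p-values are two-sided and from permutations (Python 3.11.15). No replicate pair was a copy (over 30 pairs, chi-square divided by its degrees of freedom was at least 26.2). The pipeline was tested on simulated data. Depth limits the precision of low genes, and no molecular identifiers were available, so counting error is a lower bound of the error.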

Additional observations from a re-analysis of the deposited data

Results flagged for a closer look

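One value stood apart within its group among the 21 groups of 5 libraries checked, 7 genes in 3 groups. HERPUD1 measured 17.2 CPM in EE2 33.3 µg/g replicate 4, while the other 4 libraries of that group lay between 26.5 and 29.3 CPM. Its gap to the nearest library was 0.770 of the group's range, above Dixon's 95% critical value of 0.71. Chance flags about 1 in 20 such groups. The same library was lowest of its group in 4 of the 7 genes, and its albumin share was 9.97%. Without it the log2 fold change of HERPUD1 against solvent was 0.80 (edgeR adjusted p = 0.00281). Leaving out the lowest value of the treated group raises the fold change by construction, so these values are no support for a larger change.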

How the results depend on the processing

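Log2 fold changes of the 7 genes against solvent kept their sign in every alternative, DNAJB9 apart. The count of genes called at 33.3 µg/g, 157, was 386 in DESeq2 and 101 with a replicate block, and 93 to 194 with 1 library left out. At 3.33 µg/g, 200 became 656 in DESeq2, 117 with the block and 111 to 264 with 1 library left out. For the mean of both doses, 285 became 707, 165 and 147 to 334. Between the doses DESeq2 called 19 and the albumin covariate 2. Of the 7 genes, the 1 called at 33.3 µg/g became 0 with library totals only, limma-voom, the block, without the low-albumin libraries, and with only the groups compared. Alternatives added after seeing the data, the low-albumin libraries and solvent replicate 3 left out or the albumin share as covariate, also gave 0. For the mean of both doses the same settings gave 0 (the fit to compared groups does not apply there) and DESeq2 gave 2; DESeq2 gave 1 at 3.33 µg/g. With 1 library left out the count was 0 to 1 in both. DNAJB9 turned to between -0.19 and 0.023 at 3.33 µg/g and -0.041 to 0.17 for the mean of both doses with 1 library left out, and to -0.018 for the mean without the low-albumin libraries and solvent replicate 3. Between the doses CALR turned to 0.022 without the low-albumin libraries, with or without solvent replicate 3, and ran from -0.068 to 0.033 with 1 left out; XBP1 ran from -0.11 to 0.0089. The cause of these shifts was not tested. The replicate numbers showed no pairing: residuals of same-numbered libraries correlated above 0.1 in 1 of 15 pairs, and no library (0 of 15) was closest to its own number. With the block HERPUD1 had an adjusted p of 0.0728 at 33.3 µg/g. The median r over the 21 pairs was 0.65, 0.72 with group means kept, 0.69 without the low-albumin libraries and 0.46 without solvent replicate 3. An acinar covariate was not run, since 1 acinar marker was tested.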
